A study of Mus musculus with 24 samples.

Results

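The transcriptome of the organ of Corti (OC) after 24 h in gentamicin (GM) was compared with that of untreated OCs (CTRL) of the same age in culture. The comparison was defined by the sample labels alone. It took 6 of the 24 libraries of the series, 3 of GM and 3 of CTRL, and 16317 of the 24454 genes of the count table, those with enough counts to be tested. The OCs came from 5-day-old C57BL/6N mice of both sexes, and 6 OCs were pooled for each library. After 24 h of preculture, explants were kept for 24 h with 50 μM gentamicin or in medium without drugs. The other libraries of the series were from explants given pioglitazone (PIO, which activates the nuclear receptor PPAR-γ) without or with gentamicin (PIO+GM), and from the same 4 conditions after 6 h. A library is a pool of whole explants, in which hair cells (HCs) are a small part of the tissue. The labels number the libraries of a group but do not say whether these came from separate litters, so p-values measure the spread between libraries.

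HCs turn movement of their stereocilia into current through a mechanotransduction channel at the stereocilia tips, and they pass the signal to the cochlear nerve at ribbon synapses. Outer HCs also amplify sound through the motor protein prestin. Gentamicin, an aminoglycoside antibiotic, enters HCs largely through that channel and injures them, outer HCs before inner HCs, whereas supporting cells survive longer.

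Levels are given as CPM, the counts of a gene scaled to a common library total with TMM, a factor for RNA composition. Differences are log2 fold changes of GM against CTRL ± SE from the quasi-likelihood test of edgeR, with p-values adjusted over all tested genes and a threshold of 0.05. Totals were between 11516308 and 15093084 counts, and the 10 most abundant genes took 8.02% to 10.1% of a library. HC and supporting cell markers were present throughout: Myo7a, an HC myosin, had 66.9 to 96.1 CPM and Sox2, a transcription factor of supporting cells, 40.9 to 90.1 CPM in the 6 libraries. Libraries with the number 2 stood apart in both groups. Tyr, the melanocyte enzyme tyrosinase, was at 24.3 CPM in CTRL and 22.7 CPM in GM in those libraries but at most 1.58 CPM in the other 4. Kcne1, a potassium channel subunit of the stria vascularis, was at 18.0 CPM and 13.3 CPM against at most 1.27 CPM. Slc26a5, which encodes prestin, was lowest in the libraries with the number 2 in each group. At 24 h the deviations of same-numbered libraries from their groups were correlated, so a second fit used the number as a block.

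Without the block, 2 genes passed the threshold at 24 h (0.0123% of those tested), Crx and Fer1l4, and both rose. With the block there were 12 (0.0735%), of which 6 rose and 6 fell. Those that rose were Crx, Fer1l4, Gm3336, Spata20, Mtfr2 and Trim17, all of them rare in CTRL. Those that fell were Slc26a5, Kcna10, Atp2a3, Lrrc10b, Tunar and Hsd17b7. With the 24 h libraries of 1 number left out, the block passed 1 gene without number 1, 1 without number 2 and 2 without number 3, and Crx was among them each time. A block fitted to the 6 compared libraries alone passed 91 genes. These fits, chosen after the data were seen, have fewer libraries. The likelihood ratio test of edgeR passed 24 genes and the Wald test of DESeq2 passed 15, both without the block, and a fit to the 12 libraries of 24 h passed 6. At an unadjusted p under 0.05 the fit without the block listed 128 genes as higher (0.784%) and 144 as lower (0.883%). The levels of the 3 GM libraries lay wholly above those of the 3 CTRL libraries in 425 genes (2.6%) and wholly below in 499 (3.06%).

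The starts of 3 genes around which the results turn are shown from RefSeq on build GRCm38.p6, as the 250 bases before an annotated start, read 5′ to 3′ on the strand of the gene, with CG dinucleotides in capitals. Crx and Fer1l4 were the genes that rose without the block and Slc26a5 was the HC gene with the lowest p under the block.
Crx, chr7:15879956-15880205, minus strand: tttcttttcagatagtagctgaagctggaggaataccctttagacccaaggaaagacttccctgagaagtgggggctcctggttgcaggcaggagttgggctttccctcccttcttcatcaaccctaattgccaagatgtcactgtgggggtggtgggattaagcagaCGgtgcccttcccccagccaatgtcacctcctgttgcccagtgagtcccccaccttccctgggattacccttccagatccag
Fer1l4, chr2:156052994-156053243, minus strand: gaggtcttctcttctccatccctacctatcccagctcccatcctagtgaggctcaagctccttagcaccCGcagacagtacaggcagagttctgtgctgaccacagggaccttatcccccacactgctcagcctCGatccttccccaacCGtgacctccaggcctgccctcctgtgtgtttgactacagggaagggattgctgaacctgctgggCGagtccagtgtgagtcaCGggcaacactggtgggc
Slc26a5, chr5:21865605-21865854, minus strand: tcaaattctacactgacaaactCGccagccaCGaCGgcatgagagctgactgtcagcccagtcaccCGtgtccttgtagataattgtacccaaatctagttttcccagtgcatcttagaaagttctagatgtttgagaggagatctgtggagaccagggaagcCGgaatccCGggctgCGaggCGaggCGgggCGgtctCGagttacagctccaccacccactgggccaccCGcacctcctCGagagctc
These bases held 1 CG in Crx, 5 in Fer1l4 and 13 in Slc26a5, beside a median of 6 over all RefSeq windows. The annotated start used for Fer1l4 lies inside the gene, which ends at 156053019, so part of its stretch is within the gene.

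Crx encodes the homeobox transcription factor of cone and rod photoreceptors. Its level was 0.176, 0 and 0.262 CPM in CTRL and 2.81, 3.04 and 3.40 CPM in GM. The GM libraries were within a narrow range and far above each CTRL library. The log2 fold change was 4.42 ± 0.50 (adjusted p = 0.000395). As a ratio of summed counts scaled to library size, GM was 23.7 times CTRL, with a 95% counting interval from 9.89 to 74.1. Crx passed in every fit that left out a library, with log2 fold changes between 3.76 and 5.16. It passed the filter on low counts only through libraries given gentamicin, with or without pioglitazone.

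Obox6, of the oocyte-specific homeobox family, is the next tested gene to Crx on chromosome 7, 26.268 kb away on the same strand. It had 0, 0 and 0.0873 CPM in CTRL and 1.90, 1.42 and 1.40 CPM in GM. No read was thus counted in either of the first 2 CTRL libraries, and all GM libraries were above 1 CPM. The log2 fold change was 5.44 ± 1.00 (adjusted p = 0.104, and 0.115 with the block), so Obox6 did not pass in these fits, whereas it passed in the block fitted to the 6 compared libraries, in the 12 libraries of 24 h, by DESeq2 and by the likelihood ratio test. It passed the filter only through libraries given gentamicin. Crx lies at chr7:15865947-15879955 and Obox6 at chr7:15833250-15839679, both on the minus strand of GRCm38.p6, and the annotation has no other gene over either.

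Fer1l4 belongs to the ferlins, a family of membrane proteins that includes otoferlin, and lies on the minus strand at chr2:156019139-156053019. It was at 0.264, 0.264 and 0.349 CPM in CTRL and at 1.49, 2.03 and 2.27 CPM in GM, with no overlap between the groups. The log2 fold change was 2.69 ± 0.40 (adjusted p = 0.0144). The difference kept its size, between 2.57 and 2.84, when a library was left out. It lost the threshold without CTRL replicate 1, 2 or 3 or GM replicate 2 or 3, with adjusted p-values of 0.121, 0.140, 0.108, 0.0806 and 0.112 in that order. Of the 5 ferlins tested, Otof, the calcium sensor of HC synapses, was lower at an unadjusted p of 0.0398 (1 of 5, 20%, beside 0.883% of all tested genes). Fer1l4 was the 1 higher (20%, beside 0.784%). That share was fixed in advance, since the list was written with the values of Fer1l4 known, so it shows no excess.

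Gm3336, a predicted gene, had 0, 0 and 0.0873 CPM in CTRL and 1.57, 1.62 and 1.20 CPM in GM. Its log2 fold change was 5.34 ± 1.00 (adjusted p = 0.104) and it rose with the block (5.37 ± 0.77, adjusted p = 0.0112). It lies 1.2 kb before Pde4c, a cAMP phosphodiesterase gene, on the same strand of chromosome 8, and overlaps the predicted gene Gm34255, between which reads cannot be assigned with certainty. Pde4c, named after its values were seen, was at 0.527, 0.330 and 0.436 CPM in CTRL and at 3.56, 3.04 and 3.27 CPM in GM, again without overlap (2.92 ± 0.71, adjusted p = 0.334, and 0.071 with the block). Pde4c passed in the block fitted to the 6 compared libraries, in the 12 libraries of 24 h, by DESeq2 and by the likelihood ratio test.

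Ptk6 and Srms, also neighbours, are related cytoplasmic tyrosine kinases that lie 2.774 kb apart on chromosome 2 and were named after their values were seen. Ptk6 had 0.0879, 0.132 and 0.262 CPM in CTRL and 0.744, 1.08 and 0.868 CPM in GM. Srms had 0.615, 0.396 and 0.611 CPM in CTRL and 1.74, 1.28 and 1.00 CPM in GM. Neither gene overlapped between the groups, neither passed the adjusted threshold (adjusted p = 0.341 and 0.661) although Ptk6 did by the likelihood ratio test, and both passed the filter only through libraries given gentamicin. Crx with Obox6, Gm3336 with Pde4c and Ptk6 with Srms were the 3 pairs of neighbours, with no other tested gene between them, among the 128 at an unadjusted p under 0.05 and higher. There were 7 such pairs among the 143 lower genes with a position, of which the farthest lay 1035.585 kb apart. No test was made of either count.

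Trim17, a TRIM family ubiquitin ligase, was at 1.93, 0.859 and 1.05 CPM in CTRL and 3.72, 4.53 and 4.14 CPM in GM (1.70 ± 0.33, adjusted p = 0.104), and it rose with the block (adjusted p = 0.0441), though not in the block fitted to the 6 compared libraries. It overlaps 2 histone genes, H2aw and H3f4, and reads in the overlap cannot be assigned with certainty. Mtfr2, a regulator of mitochondrial fission, was at 0.967, 1.06 and 2.10 CPM in CTRL and 3.06, 3.24 and 5.74 CPM in GM, and it rose with the block (1.55 ± 0.24, adjusted p = 0.017). In both genes every GM library was above every CTRL library. Spata20 had 0.352, 0.198 and 0.349 CPM in CTRL and 3.31, 0.878 and 1.87 CPM in GM, the most uneven GM levels of those that rose with the block (2.63 ± 0.39, adjusted p = 0.0112). Spata20 passed the filter on low counts only through libraries given gentamicin.

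A nuclear receptor, a muscle factor and a melanocortin receptor gene, all under 1 CPM in CTRL, also had GM libraries wholly above CTRL. Nr5a1, the steroidogenic nuclear receptor SF-1, had 0.264, 0.0661 and 0.262 CPM in CTRL and 1.158, 1.08 and 1.20 CPM in GM. Myf6, a muscle regulatory factor, had 0.0879, 0 and 0.0873 CPM in CTRL and 1.08, 1.01 and 1.07 CPM in GM. Mc1r, the melanocortin receptor, had 0.352, 0.529 and 0.524 CPM in CTRL and 2.89, 1.22 and 1.33 CPM in GM. In the fits to all 24 libraries none of the 3 passed the adjusted threshold, with or without the block (adjusted p between 0.117 and 0.233). All 3 passed by the likelihood ratio test, and Myf6 passed in the block fitted to the 6 compared libraries. Nr5a1 and Myf6 passed the filter only through libraries given gentamicin. Mc1r did not follow the other melanocyte gene Tyr, which was high in the libraries with the number 2. Among better measured genes, Cdc6, a licensing factor of DNA replication, was at 3.34, 4.89 and 3.84 CPM in CTRL and 5.95, 8.11 and 7.61 CPM in GM (0.84 ± 0.18, adjusted p = 0.191), and it passed by DESeq2.

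The higher and lower genes differed in level. The 128 higher genes had a median of 0.735 CPM in CTRL and 1.70 CPM in GM, and 84 of them were under 1 CPM in CTRL. Of these 128, 40 passed the filter on low counts only through libraries given gentamicin (with or without pioglitazone, at either time). Of the 88 that passed the filter without those libraries, 44 were under 1 CPM in CTRL. The 144 lower genes had a median of 9.47 CPM in CTRL and 3.70 CPM in GM, and 6 were under 1 CPM in CTRL. Over all tested genes the median level in CTRL was 23.0 CPM.

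**Figure D1:**
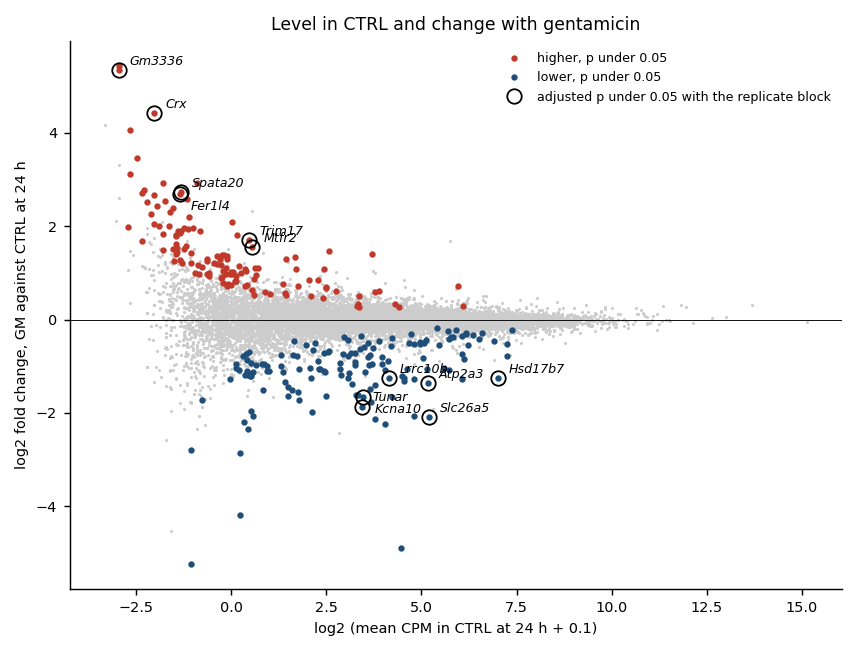
Each point is 1 of the 16317 tested genes, by its mean level in CTRL at 24 h (log2 of CPM with 0.1 added) on the horizontal axis and its log2 fold change of GM against CTRL on the vertical axis. Red and blue points are higher and lower genes at an unadjusted p under 0.05, and circles mark the 12 genes past the adjusted threshold with the replicate block: the red ones lie at the left, at low levels, and the blue ones further to the right.

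Slc45a3, Grk1 and Tafa3 had the lowest p of the genes that were lower without the block. Grk1, which encodes a photoreceptor kinase, was at 15.4, 18.8 and 14.9 CPM in CTRL and 2.56, 4.26 and 3.47 CPM in GM (-2.25 ± 0.43, adjusted p = 0.104). Slc45a3 was at 9.84, 5.09 and 14.1 CPM in CTRL and 2.73, 2.97 and 3.67 CPM in GM (-1.62 ± 0.31, adjusted p = 0.104). Tafa3, a small secreted protein gene, was at 13.9, 11.5 and 12.3 CPM in CTRL and 3.39, 3.92 and 3.74 CPM in GM (-1.77 ± 0.34, adjusted p = 0.104). In all 3 each GM library was below each CTRL library. None passed the adjusted threshold in the fits to all 24 libraries, with or without the block, whereas all 3 passed in the block fitted to the 6 compared libraries, by DESeq2 and by the likelihood ratio test, and Grk1 and Tafa3 passed in the 12 libraries of 24 h.

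Kcnj13, the inward rectifier channel Kir7.1, was at 11.7, 14.4 and 14.9 CPM in CTRL and 3.39, 5.88 and 6.07 CPM in GM (-1.41 ± 0.35, adjusted p = 0.380). Mmp24, a membrane-type metalloproteinase, had 10.3, 14.0 and 12.9 CPM against 4.55, 5.20 and 3.60 CPM (-1.48 ± 0.35, adjusted p = 0.325). Lrp8, a reelin receptor, had 31.6, 32.4 and 34.1 CPM against 15.5, 24.3 and 15.9 CPM (-0.82 ± 0.19, adjusted p = 0.327). These 3 genes also separated the groups, and each overlaps another annotated gene. They passed in the block fitted to the 6 compared libraries, and Mmp24 and Lrp8 passed by DESeq2 as well. Tril, an accessory protein of Toll-like receptor 4, was at 64.5, 61.7 and 75.8 CPM in CTRL and 34.1, 45.5 and 40.9 CPM in GM (-0.74 ± 0.19, adjusted p = 0.401, and 0.159 with the block), and it passed in the block fitted to the 6 compared libraries.

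Atp2a3, the calcium pump SERCA3, was at 42.4, 22.0 and 42.9 CPM in CTRL and 16.5, 6.69 and 18.4 CPM in GM, and it fell with the block (-1.42 ± 0.21, adjusted p = 0.0112). Hsd17b7, an enzyme of cholesterol synthesis, was at 155, 63.7 and 168 CPM in CTRL and 56.2, 28.98 and 77.0 CPM in GM, and it fell with the block (-1.24 ± 0.21, adjusted p = 0.0327). In both genes the library with the number 2 was the lowest of its group, and each GM library was below the CTRL library of its number. The long noncoding RNA Tunar (-1.86 ± 0.33, adjusted p = 0.0441) and the leucine-rich repeat gene Lrrc10b (-1.24 ± 0.19, adjusted p = 0.017) fell with the block in the same manner. Of the 22 genes of sterol synthesis, 1 was higher and 21 were lower, with a median log2 fold change of -0.22. This median was between -0.30 and -0.11 under the alternatives. In PIO+GM against PIO 7 of the 22 were higher and 15 lower, with a median of -0.04. In GM against CTRL 2 of the 22 had an unadjusted p under 0.05 (9.09%, beside 0.883% of all tested genes). These were Hsd17b7 and Sqle, the squalene epoxidase (-0.28 ± 0.13), both lower.

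**Figure D2:**
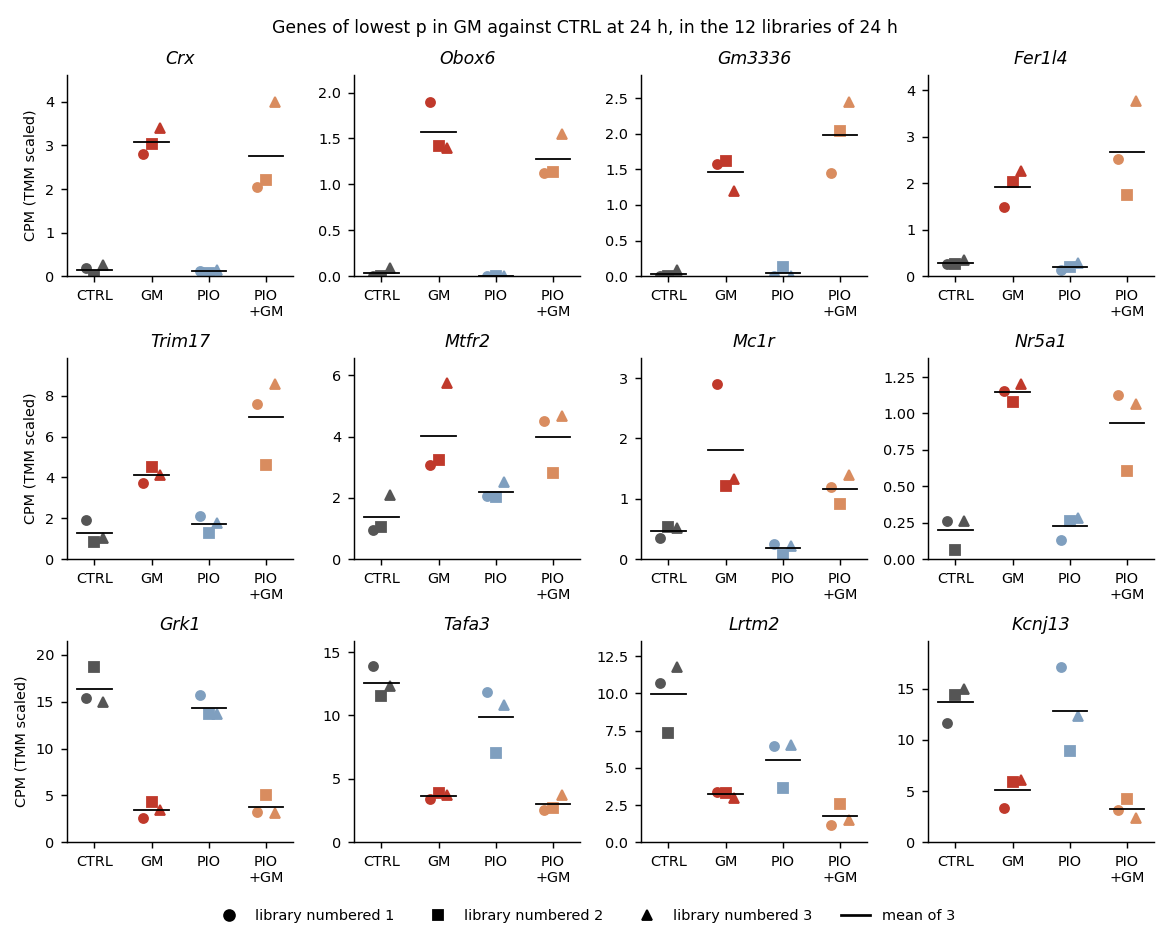
CPM of 12 genes in each of the 12 libraries of 24 h, by group on the horizontal axis, with a symbol for the library number and a line for the mean of 3 libraries. In the 8 upper panels the libraries with gentamicin lie above those without it, and in the 4 panels of the bottom row they lie lower, with and without pioglitazone. The 12 genes were picked among those of low p and are not the 12 lowest. Slc45a3, Tmem145, Myf6, Mmp24 and Lrp8, with a lower p than Kcnj13, are among those left out. Gm20597, also left out, had log2 fold changes of -1.55 ± 0.39 without pioglitazone and -0.37 ± 0.40 with it.

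The PIO and PIO+GM libraries of 24 h gave a second comparison of gentamicin that shares no library with the first. It passed 12 genes (0.0735%), of which 11 rose and 1 fell, and with the block 18 (0.11%), of which 15 rose and 3 fell, with 10 genes in both. Crx was at 0.129, 0.0651 and 0.143 CPM in PIO and 2.05, 2.20 and 4.01 CPM in PIO+GM, and rose (4.50 ± 0.50, adjusted p = 0.000173). Obox6, with no count in any PIO library and 1.13, 1.14 and 1.55 CPM in PIO+GM, passed in this pair of groups without the block (adjusted p = 0.0278) and not with it (0.0636). Fer1l4 (3.67 ± 0.41, adjusted p = 0.000173), Gm3336 (adjusted p = 0.0183), Trim17 (adjusted p = 0.0108), Mc1r (adjusted p = 0.0278) and Pnpla1 (adjusted p = 0.0223) rose here. Crx, Fer1l4, Gm3336, Trim17, Mc1r and Pnpla1, the last named after its values were seen, passed with the block as well. In GM against CTRL, Mc1r and Pnpla1 had passed by the likelihood ratio test alone. Kcnj13 fell without the block (-1.98 ± 0.36, adjusted p = 0.0315) and did not pass with it (0.0653). The 3 genes that fell with the block were Slc26a5 (-1.68, adjusted p = 0.0371), Lrrc10b (-1.35, adjusted p = 0.00747) and Tril (-0.92, adjusted p = 0.0352).

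Of the 128 genes higher in GM against CTRL, 116 (90.6%) were also higher in PIO+GM against PIO, and 64 of these had an unadjusted p under 0.05 there, where 1.84% of all tested genes were higher at that p. Of the 144 lower genes, 122 (84.7%) were lower in the second comparison, 61 at an unadjusted p under 0.05, beside 0.748% of all tested genes. Over all tested genes the direction was the same in 48.4%. The filter used the PIO+GM libraries too, so a gene that entered only through gentamicin libraries was not chosen independently of the second comparison. Of the 88 higher genes that passed the filter without any gentamicin library, 78 (88.6%) were higher in the second comparison, 39 of them at an unadjusted p under 0.05, and of 140 such lower genes 121 (86.4%) were lower, 61 at that p. Over the 15760 tested genes of this kind the direction was the same in 48.3%. The medians of the 128 were 1.21 in GM against CTRL and 0.85 in PIO+GM against PIO, and those of the 144 were -0.98 and -0.55. All 12 genes called with the block had the same direction in the second comparison. The interaction between gentamicin and pioglitazone at 24 h passed for no gene (0 by edgeR at the adjusted threshold, 197 at an unadjusted p under 0.05, and 0 with the block).

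**Figure D3:**
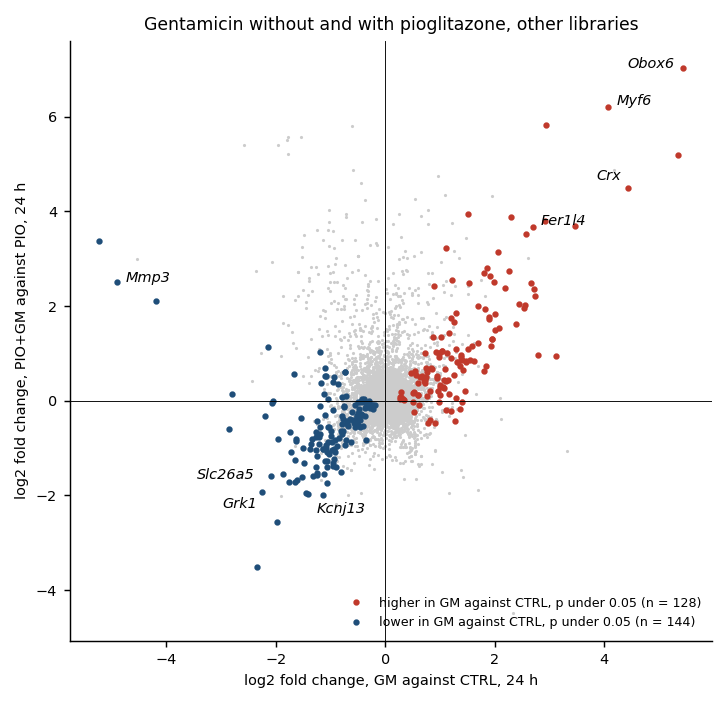
Each point is a tested gene, by its log2 fold change of GM against CTRL on the horizontal axis and of PIO+GM against PIO on the vertical axis, both at 24 h. The 128 red and 144 blue points, chosen by the horizontal axis at an unadjusted p under 0.05, lie mostly at the upper right and the lower left. Mmp3, high in a single CTRL library, is an exception at the upper left.

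HC genes were grouped by role into 4 lists, which held 57 genes of the table, 56 of them tested. Of the 56, 42 were lower and 14 higher in GM, with a median log2 fold change of -0.29, beside -0.0025 over all tested genes. At an unadjusted p under 0.05, 10 were lower (17.9%, beside 0.883% of all tested genes) and 0 higher (beside 0.784%). In all 3 numbered pairs 34 were lower (60.7%), beside 16% of all tested genes, and 5 were higher, beside 14.2%. Without the block 0 of the 56 passed the adjusted threshold, and with it 2 did, Slc26a5 and Kcna10. The mean log2 CPM of the list was 4.51, 4.28 and 4.63 in CTRL and 4.02, 3.82 and 4.29 in GM in the order of the numbers, so each GM library was below its CTRL partner by a similar amount. In pooled tissue, fewer HCs and less of these RNAs per HC cannot be told apart.

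Genes of outer HCs, the synapse and calcium handling had the lowest median, -0.69 over 15 genes (-0.44 without CTRL replicate 3), of which 3 were higher. At an unadjusted p under 0.05, 4 were lower (26.7%, beside 0.883% of all tested genes). Slc26a5 was at 43.6, 5.62 and 60.4 CPM in CTRL and 7.77, 0.676 and 17.2 CPM in GM. The groups overlapped, since CTRL replicate 2 was below 2 GM libraries, but each GM library was below its CTRL partner. The log2 fold change was -2.09 ± 0.89 without the block (adjusted p = 1.00, unadjusted p = 0.0297) and -2.21 ± 0.30 with it (adjusted p = 0.00967). The blocked value was -2.06 without the libraries of number 1 or of number 2 and -2.66 without those of number 3, with adjusted p-values of 0.270, 0.162 and 0.0197. Kcna10, a voltage-gated potassium channel, was at 11.5, 5.88 and 15.6 CPM in CTRL and 2.73, 1.49 and 6.21 CPM in GM. It fell with the block (-1.76 ± 0.27, adjusted p = 0.017) and the blocked value was -1.61, -1.66 and -2.03 without numbers 1, 2 and 3, each time without passing (adjusted p = 0.246, 0.384 and 0.163).

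Ocm, which encodes the calcium buffer oncomodulin of outer HCs, was at 42.8, 7.14 and 68.1 CPM in CTRL and 7.03, 1.82 and 22.4 CPM in GM. It was named after its values were seen, and within each group its libraries had the same order as those of Slc26a5 (with the block -2.00 ± 0.51, adjusted p = 0.405). Chrna10, a subunit of the acetylcholine receptor of efferent synapses, was at 20.7, 21.3 and 27.6 CPM in CTRL and 7.77, 8.78 and 12.5 CPM in GM, without overlap of the groups (-1.25 ± 0.40, unadjusted p = 0.00514). Its position overlaps the gene Art1. Otof was at 171, 132 and 156 CPM in CTRL and 92.5, 74.5 and 98.5 CPM in GM, also without overlap of the groups (-0.79 ± 0.36). These genes differed less between the numbers than Slc26a5 did.

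Of the 10 mechanotransduction genes, 9 were lower, with a median of -0.52 and 2 at an unadjusted p under 0.05 (20%, beside 0.883%). Tomt, required to bring the channel to the stereocilia, was at 8.53, 7.07 and 11.3 CPM in CTRL and 1.98, 3.11 and 5.14 CPM in GM (-1.38 ± 0.44). It overlaps Anapc15 and Lamtor1, and reads in the overlap cannot be assigned with certainty. Lhfpl5, a channel subunit, was at 12.4, 9.91 and 14.0 CPM in CTRL and 7.19, 5.47 and 8.14 CPM in GM (-0.80 ± 0.37). Both separated the groups. Tmc1, the pore-forming subunit, was at 25.1, 12.7 and 34.7 CPM in CTRL and 12.4, 6.22 and 17.0 CPM in GM, with overlap between groups and a lower value in each pair (with the block -1.03 ± 0.37, adjusted p = 1.00). Tmc2, its early postnatal relative, was at 4.66, 7.80 and 3.75 CPM in CTRL and 2.65, 3.38 and 4.07 CPM in GM and did not separate the groups.

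The 22 genes of stereocilia and actin had a median of -0.20 (-0.35 without GM replicate 3), with 16 lower and 3 at an unadjusted p under 0.05 (13.6%, beside 0.883%). Myo15, the motor that carries elongation factors to stereocilia tips, was at 35.3, 26.8 and 43.9 CPM in CTRL and 15.8, 14.9 and 20.4 CPM in GM (-1.05 ± 0.34). Espnl, an espin-like actin binding protein, was at 47.3, 38.6 and 59.5 CPM in CTRL and 21.7, 18.1 and 31.4 CPM in GM (-1.03 ± 0.34). Strc, the gene of stereocilin, which links outer HC stereocilia, was named after its values were seen and was at 57.1, 36.6 and 65.1 CPM in CTRL and 25.1, 19.5 and 30.6 CPM in GM (-1.08 ± 0.38). In these 3 genes all GM libraries were below all CTRL libraries. Myo7a was at 93.3, 94.9 and 82.1 CPM in CTRL and 96.1, 85.5 and 66.9 CPM in GM (-0.12, unadjusted p = 0.613), so this motor did not separate the groups.

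Of the 9 HC transcription factors, 4 were higher and 5 lower, with a median of -0.07 that took the opposite sign under 6 of the alternatives. Lhx3, a LIM homeobox factor, was at 3.43, 5.35 and 3.67 CPM in CTRL and 1.41, 1.42 and 2.40 CPM in GM (-1.25 ± 0.46, unadjusted p = 0.0141), and was the 1 of the 9 under 0.05 (11.1%, beside 0.883%). Pou4f3, needed for HC survival, was at 9.58, 8.32 and 16.1 CPM in CTRL and 12.3, 12.7 and 21.2 CPM in GM (0.45 ± 0.37, unadjusted p = 0.239). Pou4f3 was thus higher in each numbered pair while the groups overlapped, opposite in direction to most HC genes. In PIO+GM against PIO its log2 fold change was -0.42 ± 0.37. Atoh1, which specifies HCs, was between 0.992 and 3.04 CPM in all 6 libraries (-0.28 ± 0.58).

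The block fitted to the 6 libraries of GM and CTRL alone passed 91 of 15443 genes, 69 lower (0.447%) and 22 higher (0.142%). Of the 56 HC genes it passed 13 (23.2%), all lower: Strc, Espnl, Slc26a5, Chrna10, Otof, Ocm, Myo15, Tmc1, Kcna10, Tomt, Lhfpl5, Loxhd1 and Calb2. This fit leaves few degrees of freedom for the spread of a gene, and without the block the same 6 libraries passed 0 genes by edgeR (312 at an unadjusted p under 0.05). In PIO+GM against PIO 43 of the 56 HC genes were lower, with a median of -0.39 and 36 lower in all 3 numbered pairs, beside 16.2% of all tested genes. At 6 h their median in GM against CTRL was -0.06 and 0 had an unadjusted p under 0.05. Of all 16317 tested genes 157 were higher and 86 lower at that p.

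**Figure D4:**
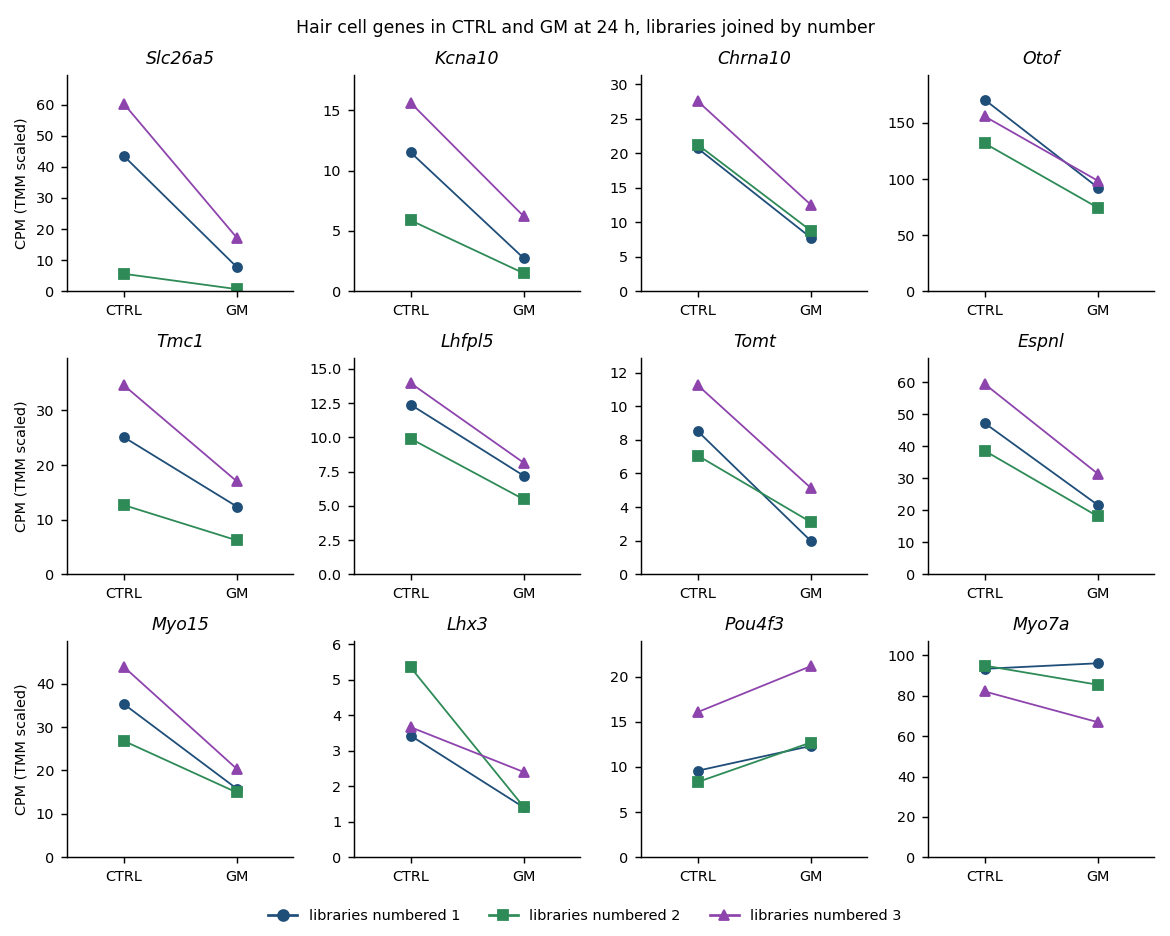
CPM of 12 HC genes in CTRL and GM at 24 h, with lines joining the libraries of the same number. The lines go down for the first 10 genes, including Slc26a5, whose libraries with the number 2 are the lowest, go up for Pou4f3 and differ in direction for Myo7a.

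Supporting cell genes had a median of -0.14 over 21 genes (-0.36 without CTRL replicate 2), of which 5 were higher. In all 3 numbered pairs 12 were lower (57.1%, beside 16% of all tested genes). Hes5, an effector of Notch signalling, was the 1 member with an unadjusted p under 0.05 (4.76%, beside 0.883%), at 2.64, 11.2 and 2.79 CPM in CTRL and 0.413, 3.92 and 0.934 CPM in GM (-1.65 ± 0.77, unadjusted p = 0.0446). It was lower in each numbered pair, and its value moved to -0.61 without CTRL replicate 2 and to -3.01 without GM replicate 2, the highest library of each group. At 6 h it was at 1.85, 0.529 and 7.91 CPM in CTRL and 0.336, 0.590 and 0.544 CPM in GM (-2.78 ± 0.90), with replicate 3 well above the other CTRL libraries. The block fitted to the 6 compared libraries passed 5 of the 21 (23.8%, beside 0.447% of all genes), all lower: Hes5, Hey2, Jag1, Lfng and Fgfr3, the last 4 named after their values were seen. Jag1 is a Notch ligand. In PIO+GM against PIO 10 of the 21 supporting cell genes were higher and 11 lower, with a median of -0.0073. There 6 were higher and 6 lower in all 3 numbered pairs. In GM against CTRL all 6 genes of the tectorial membrane were lower, with a median of -0.11. Of these 6, 0 had an unadjusted p under 0.05, beside 0.883% of all tested genes. Tecta, its main noncollagenous protein, was between 1334 and 3278 CPM.

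Interferons make cells transcribe antiviral genes, many through a repeat of TTTC or GAAA in the promoter that binds the ISGF3 complex or IRF factors. Of the 51 antiviral genes tested, 49 were higher in GM at 24 h, with a median of 0.34 (0.19 without CTRL replicate 2 and 0.65 without CTRL replicate 3), and 5 were at an unadjusted p under 0.05 (9.8%, beside 0.784% of all tested genes). None passed the adjusted threshold in the fit to all 24 libraries, with or without the block. The block fitted to the 6 compared libraries passed 5 of the 51 (9.8%, beside 0.142% of all genes), Ifit1, Ifit3, Ifit3b, Mx1 and Rsad2, all higher. Ifit1, which binds foreign RNA, was at 16.9, 3.04 and 18.6 CPM in CTRL and 52.3, 7.90 and 40.4 CPM in GM (1.40 ± 0.66, adjusted p = 1.00). Rsad2, the antiviral enzyme viperin, was at 8.26, 1.59 and 7.77 CPM in CTRL and 28.4, 6.28 and 14.0 CPM in GM (1.48 ± 0.68). Both, named after their values were seen, were higher in each numbered pair, and in both groups the libraries with the number 2 were lowest.

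Isg20, an antiviral exonuclease, was at 0.791, 0.529 and 0.698 CPM in CTRL and 2.32, 1.22 and 1.13 CPM in GM, without overlap (1.20 ± 0.41). Rtp4 was at 5.36, 2.77 and 7.86 CPM in CTRL and 17.4, 5.74 and 10.7 CPM in GM (1.09 ± 0.49). Isg15, a ubiquitin-like modifier, was at 2.37, 1.12 and 4.89 CPM in CTRL and 7.36, 3.11 and 4.74 CPM in GM (0.87 ± 0.58), within an overlap. Of the 15 interferon-inducible GTPases, 13 were higher, with a median of 0.44, which was 0.10 without GM replicate 1 and 0.69 without GM replicate 2. Tgtp2 was the 1 member with an unadjusted p under 0.05 (6.67%, beside 0.784% of all tested genes), at 1.41, 0.462 and 1.13 CPM in CTRL and 7.77, 1.35 and 1.47 CPM in GM (1.82 ± 0.57), its highest value in GM replicate 1, and its log2 fold change was 0.52 without that library. That library also had the highest levels of Ifit1, Rsad2, Isg20 and Rtp4.

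The motif TTTCNNTTTC or GAAANNGAAA, searched on both strands, was present in 1131 of 32851 RefSeq windows of 300 bases around gene starts (3.44%). Stretches that hold it before the starts of Ifit1, Rsad2 and Tgtp2 are shown from GRCm38.p6 on the strand of the gene with the motif in capitals, since these genes carry the interferon values above.
Ifit1, chr19:34640755-34640843, plus strand: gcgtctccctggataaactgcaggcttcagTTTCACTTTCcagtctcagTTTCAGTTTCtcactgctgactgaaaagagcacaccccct
Rsad2, chr12:26456533-26456602, minus strand: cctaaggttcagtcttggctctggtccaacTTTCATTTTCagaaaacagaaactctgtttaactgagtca
Tgtp2, chr11:49064243-49064312, minus strand: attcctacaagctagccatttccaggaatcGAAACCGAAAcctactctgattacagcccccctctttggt
Ifit1 has a pair of matches, which lie 104 and 85 bases before its start, and the matches of Rsad2 and Tgtp2 begin 120 and 70 bases before theirs. A match is a description of the letters and does not show that a factor was bound.

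The same 51 antiviral genes had a median of 1.11 in GM against CTRL at 6 h, where all 51 were higher and 39 had an unadjusted p under 0.05 (157 of all tested genes, or 0.962%, were higher at that p). The difference between 24 h and 6 h had an unadjusted p under 0.05 in 2 of the 51 (0.766% of all tested genes) and passed the adjusted threshold in none of the 16317 genes (0 by edgeR, 125 at an unadjusted p under 0.05, and 0 with the block). In PIO+GM against PIO at 24 h the median was 0.25, with 44 of 51 higher and 1 higher at an unadjusted p under 0.05, a share near the 1.84% of all tested genes. For the GTPases the median at 6 h was 0.92.

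Crx was already higher at 6 h, at 0.643, 0.529 and 0.639 CPM in CTRL and 2.19, 1.85 and 1.84 CPM in GM (1.68 ± 0.41, unadjusted p = 0.000578). Its difference between time points had an unadjusted p of 0.00061, which did not pass the adjustment (adjusted p = 1.00). Fer1l4 at 6 h was at 0.483, 0.265 and 0.399 CPM in CTRL and 0.841, 1.18 and 0.748 CPM in GM (1.23 ± 0.41). GM at 6 h passed 0 genes by edgeR, with 243 at an unadjusted p under 0.05 and 0 with the block. The median at 6 h of the 128 genes higher at 24 h was 0.25, and that of the 144 lower genes was -0.12.

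Of 5 lists for cell stress and death, 0 genes had an unadjusted p under 0.05. Over all tested genes 0.784% were higher and 0.883% lower at that p, so in lists of this length a count of 0 is near these shares. Of 26 p53 target genes 14 were higher, with a median of 0.05. Cdkn1a, the p53-induced cell cycle inhibitor p21, was at 66.4, 46.4 and 48.97 CPM in CTRL and 56.1, 62.1 and 53.8 CPM in GM. The 26 genes of the BCL2 family and caspases had a median of 0.02, the 25 of the integrated stress response -0.14, and the 23 of the NRF2 response to oxidants -0.04 with 8 higher. Ddit3, the stress factor CHOP, was at 31.2, 19.0 and 17.9 CPM in CTRL and 19.5, 17.3 and 18.4 CPM in GM, and Hmox1, heme oxygenase, at 36.4, 26.4 and 48.4 CPM and 38.5, 31.8 and 28.4 CPM. Both overlapped between groups. Of the 18 genes of the unfolded protein response 17 were lower, with a median of -0.15, which was -0.0061 without CTRL replicate 1. In PIO+GM against PIO 9 of these 18 were higher and 9 lower. The median of the integrated stress response took the opposite sign under 3 alternatives.

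Aminoglycosides bind ribosomes, those of mitochondria among them. Of 78 mitochondrial ribosomal protein genes 50 were higher, and of 82 nuclear genes of oxidative phosphorylation 41 were higher, with 0 at an unadjusted p under 0.05 in either list. Among 43 lysosomal genes 27 were higher, also with 0. At that p 0.784% of all tested genes were higher and 0.883% lower, so few members of such lists would be listed in any case. Of 29 immediate early genes 21 were higher, with a median of 0.13 that was 0.0076 without CTRL replicate 3. At an unadjusted p under 0.05, 1 was higher (3.45%, beside 0.784% of all tested genes) and 1 lower (3.45%, beside 0.883%). Jun, a subunit of AP-1, was at 60.5, 83.2 and 44.5 CPM in CTRL and 109, 120 and 80.9 CPM in GM (0.72 ± 0.28, unadjusted p = 0.019), whereas the nuclear receptor gene Nr4a3 was at 25.0, 13.5 and 28.8 CPM in CTRL and 14.0, 6.49 and 8.74 CPM in GM (-1.21 ± 0.38, unadjusted p = 0.00528). The block fitted to the 6 compared libraries passed Jun and Jund as higher (7.14% of 28, beside 0.142% of all genes) and Nr4a3 as lower (3.57%, beside 0.447%), Jund being named after its values were seen. Of 25 genes of the Toll-like receptor pathway 15 were higher, with a median of 0.09. Of these 25, 0 had an unadjusted p under 0.05, near the 0.784% higher and 0.883% lower of all tested genes.

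Crx was also a member of a list of 29 photoreceptor genes, which does not hold Grk1, of which 15 were tested, 5 higher and 10 lower with a median of -0.05. The list was written with the values of Crx known, so the place of Crx in it was fixed in advance. At an unadjusted p under 0.05, Crx was higher (0.784% of all tested genes were) and Prph2, a disc membrane protein, was lower (0.883%), at 1.32, 1.85 and 1.83 CPM in CTRL and 0.992, 0.743 and 0.868 CPM in GM (-0.94 ± 0.40). Of 11 contractile and YAP-responsive genes 9 were higher, with Actg2, a smooth muscle actin, at 2.02, 1.72 and 0.611 CPM in CTRL and 4.80, 2.36 and 2.34 CPM in GM (1.11 ± 0.46), and Tagln at 2.72, 2.31 and 2.62 CPM and 3.47, 3.31 and 4.54 CPM (0.57 ± 0.25). Both separated the groups without passing the adjustment, and they were the 2 of the 11 at an unadjusted p under 0.05 (18.2%, beside 0.784%).

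Markers of other cells of the explant were as follows. Of 18 macrophage genes 13 were higher, with a median of 0.19, of 12 Schwann cell genes 10, and of 10 endothelial genes all 10, with a median of 0.22. In these lists 0 genes had an unadjusted p under 0.05, near the 0.784% higher and 0.883% lower of all tested genes. In PIO+GM against PIO 14 of the macrophage, 11 of the Schwann cell and 3 of the endothelial genes were higher. In GM against CTRL without GM replicate 2 the macrophage median was -0.12 and the endothelial median -0.12. Myh11, a smooth muscle myosin among the pericyte genes, was at 0.879, 1.06 and 0.786 CPM in CTRL and 1.82, 1.55 and 2.07 CPM in GM (0.98 ± 0.32), the 1 of 8 pericyte genes at an unadjusted p under 0.05 (12.5%, beside 0.784%). The part of these cells in the interferon values was not tested.

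**Figure D5:**
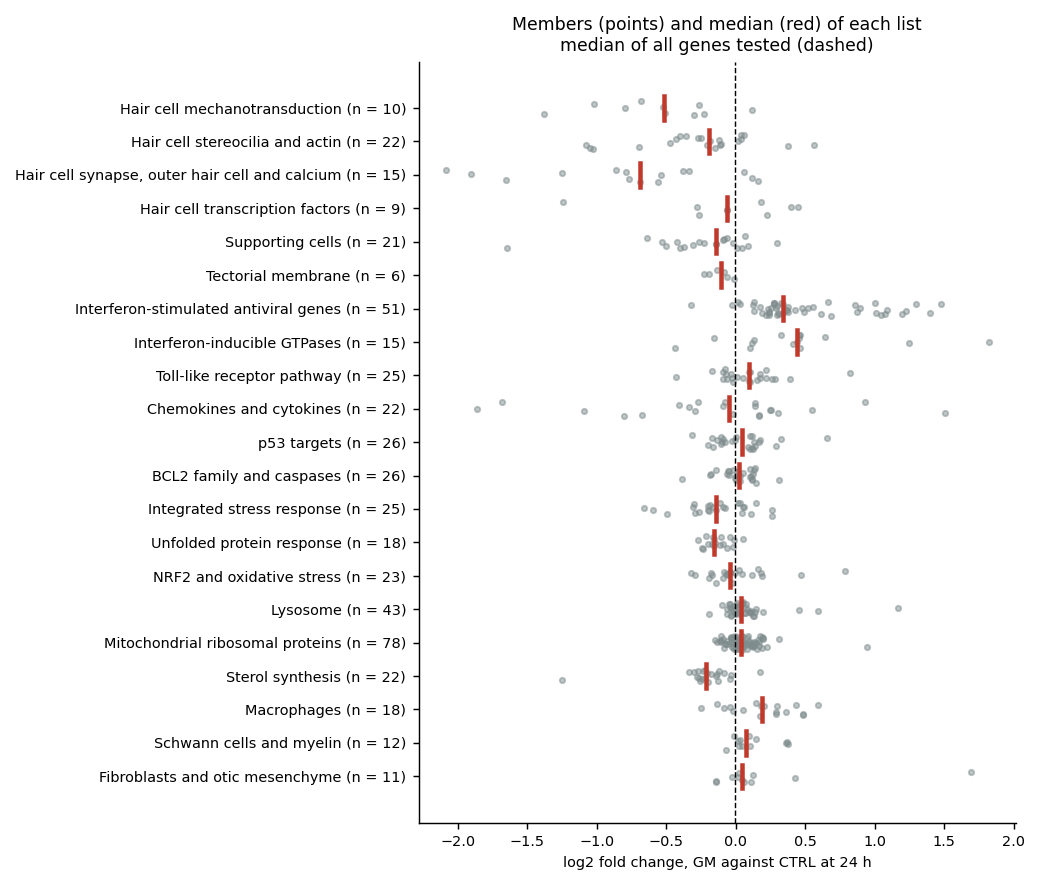
Each grey point is a tested gene of a list, by its log2 fold change of GM against CTRL at 24 h on the horizontal axis, and the red bar is the median of the list. HC lists for mechanotransduction and for synapse, outer HC and calcium genes lie to the left of the dashed median of all genes, interferon lists lie to the right, and the p53, BCL2 and NRF2 lists lie near it.

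A single library set the values of a few genes. Mmp3, a matrix metalloproteinase, was at 0.615, 0.198 and 64.6 CPM in CTRL and 0.910, 0.405 and 0.868 CPM in GM, and its log2 fold change was -4.89 ± 1.32 with CTRL replicate 3 and 0.88 without it. C3, the central complement component, was at 1.49, 2.31 and 37.0 CPM in CTRL and 1.90, 4.59 and 2.67 CPM in GM, with -2.14 ± 0.83 and 0.67 in that order. Acod1, named after its values were seen, was at 0.264, 0 and 2.97 CPM in CTRL and at most 0.0827 CPM in GM. None of the 3 passed the adjusted threshold.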

How the data were processed

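RNA was sequenced in 24 libraries, of which 6 were compared here. The authors mapped reads with STAR, per the labels' processing notes on build mm10, and deposited counts per RefSeq gene made with the qCount function of QuasR, neither normalized nor filtered. The kit kept strand, but whether counting used strand, and how reads that match several places were treated, is not given in the sources used here. The deposited table also holds gene lengths.

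The counts were fitted with edgeR 4.0.16 in R 4.3.3 (filterByExpr, TMM, quasi-likelihood test, Benjamini-Hochberg adjustment) in 1 model with a mean for each of 8 groups over all 24 libraries. DESeq2 1.42.0 was an alternative. Tables and figures were made in Python 3.11.15 with pandas 2.3.3, numpy 2.4.6 and matplotlib 3.10.9. The procedure was checked on simulated data. Sums of counts were compared with 95% intervals, which cover counting error only. With 3 libraries on each side the smallest p of an exact permutation test is 0.1, and none is reported.

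The replicate number of the labels was used as a block of 6 levels in a second fit. At 24 h, deviations from the group mean correlated between same-numbered GM and CTRL libraries at 0.428, 0.723 and 0.595. Between PIO+GM and PIO libraries the values were 0.311, 0.688 and 0.423. Over all groups of 24 h the mean was 0.380 for the same number and -0.182 for other numbers. The numbers were thus taken to pair the libraries of 24 h. At 6 h the values for GM and CTRL were 0.094, 0.135 and -0.190, which show no such pairing. The block covered the 6 h libraries all the same. The block lowered the common biological coefficient of variation from 0.225 to 0.177.

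Named genes are those past the threshold in either fit, up to 10 in each direction of lowest p with non-overlapping libraries and a mean of at least 1 CPM in the higher group, the leading and first members of each list, and genes the study names. Others are marked in the text. Genes and lists were chosen with earlier results of these data known, and no list was given a test. Gene positions and windows are from RefSeq on GRCm38.p6. Further named genes, among them Tmc1 and Myo15, overlap another annotated gene, so some of their reads may be shared. The share of genes with a window was under 80% in most lists, so no motif share is given for a list. Some items are not reported here.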

Additional observations from a re-analysis of the deposited data

How the results depend on the processing

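The count of 2 genes past the threshold in GM against CTRL at 24 h was 0 with at least 10 counts in every library, a filter that removes Crx and Fer1l4, and 0 when the 6 compared libraries were fitted alone. It was 6 in the 12 libraries of 24 h, 15 by DESeq2's Wald test, 24 by edgeR's likelihood ratio test and 12 with the replicate block. With a library left out it was between 1 and 2, and Crx passed each time. In fits added after the data were seen, the replicate block gave 91 genes in the 6 compared libraries alone, 1 without the 24 h libraries of number 1, 1 without number 2 and 2 without number 3. In PIO+GM against PIO the 12 genes became 1 with at least 10 counts in every library, 20 with no filter, 35 by DESeq2, 56 by the likelihood ratio test, 0 in the compared groups alone and 5 with the share of olfactory and vomeronasal receptor counts as a covariate, and between 4 and 17 with a library left out. The lowest of these was reached without PIO replicate 3. The block gave 18 genes in PIO+GM against PIO, and 0 at 6 h and in the interactions, as without it. Why the counts differ was not tested, other than by the filter. The median of the HC lists stayed between -0.40 and -0.24, that of the antiviral genes between 0.19 and 0.65 and that of the GTPases between 0.10 and 0.69. The medians of the macrophage, endothelial and tectorial membrane lists changed sign under 1 alternative each, those of the Toll-like receptor list under 2, the Schwann cell and NRF2 lists under 3 each, the photoreceptor list under 5 and the p53 list under 6. A gene with under 3 counts in a library is below what this depth can show.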
